A study of Mus musculus with 23 samples.

Results

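The genes described here encode the machinery that copies DNA and the enzymes that supply its nucleotides. They were chosen by symbol from a list of 53 genes covering 8 roles at the replication fork, and 52 of them were measured on the arrays by a probe set with 1 gene symbol, among 18193 genes in all. The remaining one, Chaf1a, is not analysed here. All 52 were bright enough on enough arrays to be tested, with 15266 genes tested in total.

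The cells were mouse embryonic fibroblasts, and all of them carried a retrovirus for H-Ras V12, an oncogenic form of the Ras signalling protein. The groups differed in their p53, a tumour suppressor that switches on target genes, whose knock-in alleles sat behind a transcriptional stop cassette (LSL) that Cre recombinase, given by adenovirus, removes. The WT group (n = 6) joined 3 arrays of LSL-WT cells with Cre virus and 3 arrays of WT cells with Cre virus. The 53,54 group (n = 3) held LSL-53,54 cells, with p53 changed in its second activation domain, the 25,26 group (n = 5) held LSL-25,26 cells, with p53 changed in its first activation domain, and the QM group (n = 3) held LSL-QM cells with both sets of changes, all with Cre virus. The Null group (n = 6) joined 3 arrays of LSL-WT cells given an Empty virus, whose cassette stayed in place, and 3 arrays of p53 null cells with Cre virus. Cells came from a 129 strain or a mixed background, with both kinds in every group. The labels do not say whether arrays of a group came from separate embryos or cultures, so a p-value here covers the spread between arrays of a group, which may be technical. The genotype label of WT replicate 6 named an LSL-WT allele where its title named WT.

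Replication of DNA begins with licensing, when the origin recognition complex, Cdc6 and Cdt1 load the MCM helicase onto DNA. The kinase Cdc7 with its partner Dbf4, together with Cdc45 and the GINS complex, then turns the loaded helicase into an active one, and polymerases, the sliding clamp, the ligase and fork-protection proteins complete the copy while ribonucleotide reductase, thymidine kinase and thymidylate synthase supply the precursors. Many of these genes are known E2F targets in proliferating fibroblasts, and Rb-family proteins restrain E2F in cells that stop dividing.

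Since these genes are known as E2F targets and moved together on the arrays, their promoter sequences are shown first. RefSeq promoter windows on the mouse build GRCm38.p6 reach from 250 bases before to 50 bases after the annotated gene start, and 43 of the 53 genes have one. Each window was searched on both strands for 4 forms of the E2F site, TTTGGCGC, TTTGCCGC, TTTCGCGC and TTTCCCGC, for CCAAT, the site of the factor NF-Y, and for TTTGAA, the cell-cycle homology region. An E2F form was found in 17 of the 43 genes (39.5%), against 2.6% of 27025 genes with a window and 4.2% of the 12202 such genes tested on the arrays. CCAAT was found in 27 of the 43 (62.8%), against 41.1% and 42.3%, and TTTGAA in 8 (18.6%), against 20.2% and 14.7%. E2F forms overlapped each other in 2 of the members' windows and shared bases with CCAAT in 1 window. The E2F forms were most frequent among licensing genes, in 7 of 10, and were found in none of the 4 windows of nucleotide-supply genes. A match is a description of letters, and its absence says only that these letters are not in the window.

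Stretches around the match are printed 5′ to 3′ on the strand of the gene, with the match in capitals and at most 30 bases after the gene start. They come from the gene with the largest test statistic between WT and Null among the E2F-holding genes of each role, from Orc1, the licensing gene with the smallest statistic, and from Cdc6, which was added after its values were seen because it had the lowest difference.
Mcm3, chr1:20820283-20820333, minus strand: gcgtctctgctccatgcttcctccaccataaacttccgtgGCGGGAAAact
Cdc6, chr11:98907973-98908060, plus strand: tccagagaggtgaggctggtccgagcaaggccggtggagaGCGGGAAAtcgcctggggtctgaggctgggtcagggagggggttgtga
Orc1, chr4:108579387-108579474, plus strand: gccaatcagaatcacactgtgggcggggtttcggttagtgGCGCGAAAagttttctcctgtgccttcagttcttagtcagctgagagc
Gins3, chr8:95633478-95633565, plus strand: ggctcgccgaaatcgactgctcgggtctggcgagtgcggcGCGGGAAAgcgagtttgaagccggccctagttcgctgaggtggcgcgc
Rfc3, chr5:151651179-151651258, minus strand: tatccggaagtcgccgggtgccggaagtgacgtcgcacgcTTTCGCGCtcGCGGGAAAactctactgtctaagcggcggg
Pold3, chr7:100121473-100121525, minus strand: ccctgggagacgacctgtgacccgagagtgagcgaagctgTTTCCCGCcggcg
Lig1, chr7:13278830-13278859, plus strand: ccgccccctcccgccaaagtgcGCGCGAAA
Clspn, chr4:126556961-126557009, plus strand: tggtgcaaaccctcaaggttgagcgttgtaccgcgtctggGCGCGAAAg
Uhrf1, chr17:56304088-56304175, plus strand: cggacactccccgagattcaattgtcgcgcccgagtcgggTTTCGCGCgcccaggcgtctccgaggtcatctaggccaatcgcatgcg
The match began 138 bases before the start in Cdc6 and 185 bases before it in Uhrf1, against 27 in Orc1, 41 in Gins3 and 10 in Rfc3, and it lay within the transcribed bases in Mcm3, Pold3, Lig1 and Clspn. The Orc1 and Uhrf1 stretches also hold CCAAT, and the Gins3 stretch holds TTTGAA.

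Levels are given as log2 of the authors' RMA intensity, and a difference is a difference of group means on that scale. Probe sets differ in brightness, so levels are compared between arrays and not between genes. As a check of the labels, the p53 targets Cdkn1a, Mdm2 and Ccng1 all rose in WT, in 53,54 and in 25,26 cells against Null, and none passed in QM. Mdm2, the ubiquitin ligase that limits p53, lay between 12.60 and 13.65 in WT and between 12.81 and 13.07 in 53,54 cells. It lay between 11.36 and 11.88 in 25,26, between 10.17 and 10.38 in QM and between 10.27 and 10.44 in Null cells. The 8 fibroblast markers were all measured and none was under the detection floor, a log2 level of 4.79, on every array. The p53 and H-Ras transcripts themselves are not analysed here.

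The comparison of WT with Null asked how replication genes stood with p53 present and absent under oncogenic Ras. In WT cells 50 of the 52 genes fell at an adjusted p under 0.05 and none rose, while 11.8% of all 15266 genes tested were lower and 10.9% higher by the same limma test. The members' median log2 difference was -1.10, against 0.00 over all genes (-0.03 to 0.01 in each comparison of groups below), and single genes ran from -2.18 for Cdc6 to -0.42 for Orc2. Of the 50, 30 were at least 2-fold lower, a cut for which the share of all genes was not taken. In 37 of the 52 genes every WT array lay below every Null array, as in 5.16% of all genes. Rpa1 and Rrm2 were the genes that did not pass. In bulk RNA, fewer cells in S phase and less replication RNA per cell cannot be told apart.

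**Figure D1:**
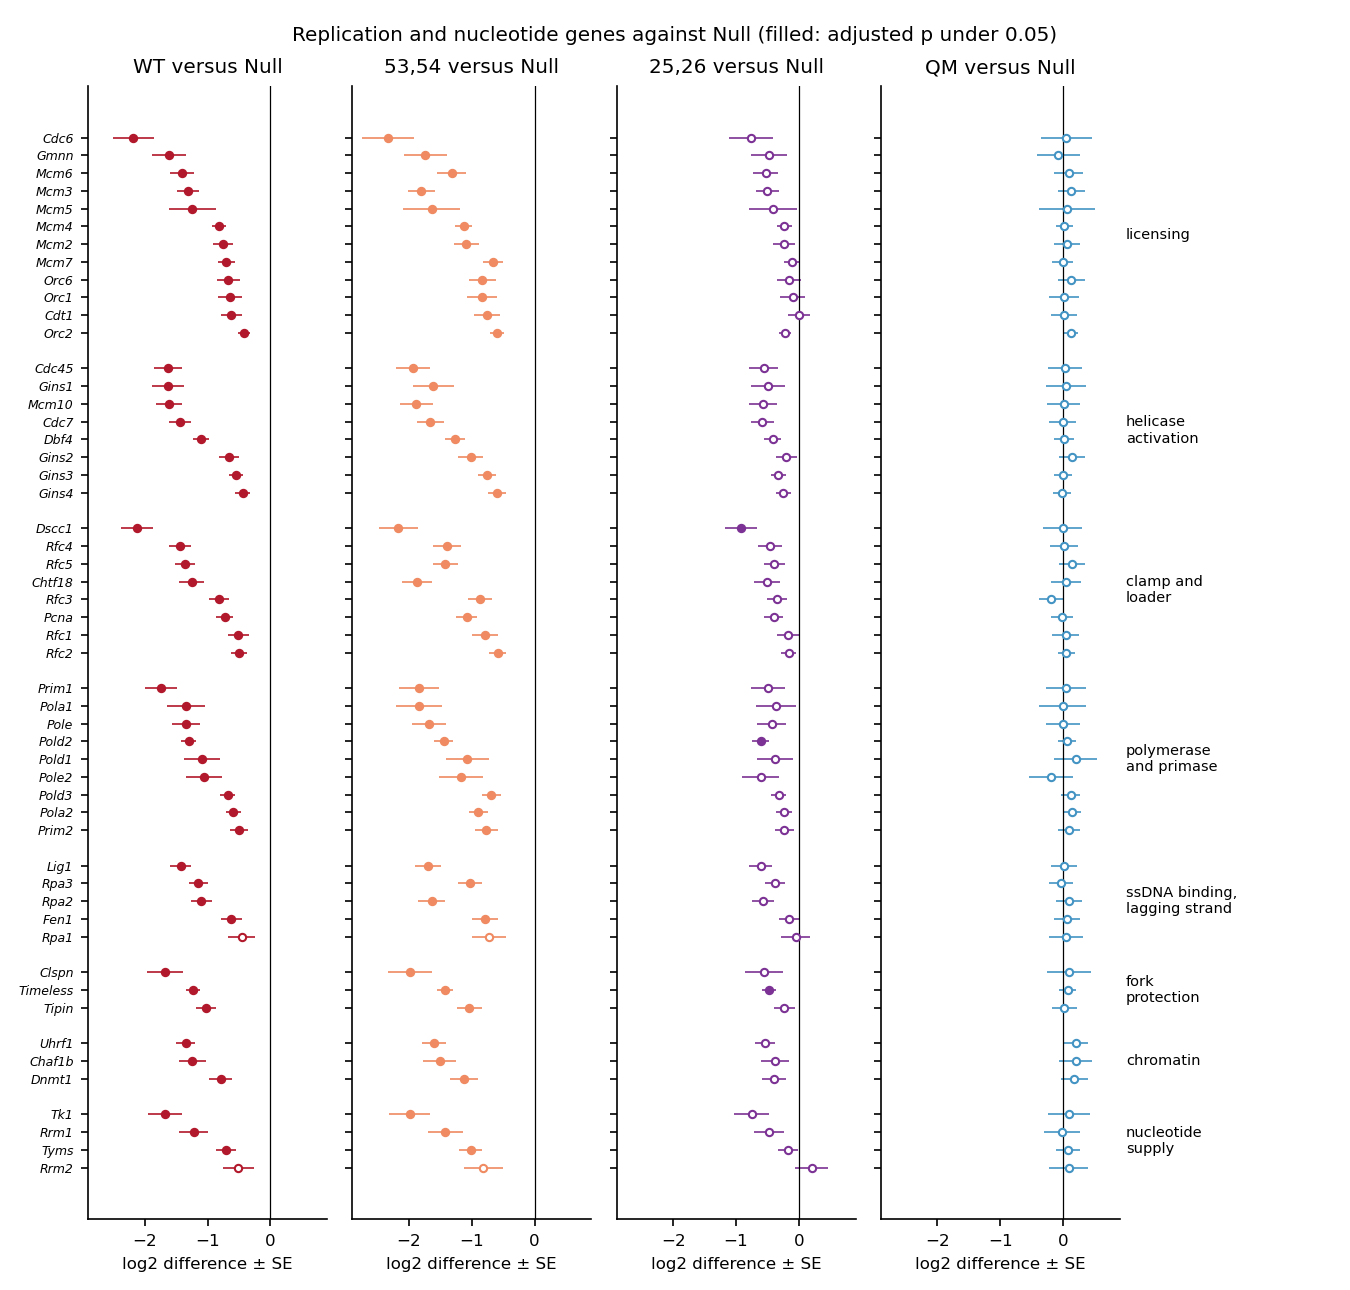
Log2 difference from Null (x axis, mean difference ± SE) for each of 52 genes, grouped by role and ordered within a role by the WT difference, in WT, 53,54, 25,26 and QM cells; filled points passed an adjusted p of 0.05. All points lie left of 0 in WT and 53,54 cells, 50 of 52 filled in each, 3 are filled in 25,26 cells and none in QM cells.

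In the 53,54 cells, with p53 changed in the second activation domain, 50 of 52 genes fell against Null, with 10.3% of all genes lower, and the members' median difference was -1.22. In 47 of the 52 every 53,54 array lay below every Null array, as in 10.4% of all genes. Rpa1 and Rrm2 again did not pass, and when arrays were paired by the number in their sample title, which same-number arrays of these groups bore out, they passed at -0.78 (adjusted p = 0.00102) and -0.90 (adjusted p = 0.0011). Set directly against WT, none of the 52 genes passed in 53,54 cells, where 0.0459% of all genes were lower and 0.321% higher by limma. At an unadjusted p under 0.05, 4 members, Mcm3, Mcm4, Chtf18 and Rpa2, were lower, with 3.35% of all genes. The 53,54 mean was below the WT mean for 46 of 52 genes, with a median difference of -0.21. The 95% intervals of these differences lay within 1 log2 unit of 0 for 46 genes, and the lowest bound was -1.34.

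In the 25,26 cells, with p53 changed in the first activation domain, most of these genes lay between WT and Null. Against Null, 3 of the 52 fell, with 1.28% of all genes lower: Pold2, Timeless and Dscc1. The median difference was -0.39, 51 of 52 differences were below 0, Rrm2 being the exception, and 24 members were lower at an unadjusted p under 0.05, with 7.7% of all genes. The 95% intervals of the differences from Null lay within 1 log2 unit of 0 for 40 genes, and the lowest bound was -1.49. Against the 3 Null arrays with Cre virus alone none passed, with 0.793% of all genes lower. With array weights 9 did, with 4% of all genes lower. Paired by title number 32 did, with 6.57% of all genes lower, although not all same-number arrays of these groups bore the pairing out. In that fit 25,26 replicate 5, the only array with its number, carries no weight. Without the 7 arrays numbered 2 none of the 3 genes passed, with differences of -0.49 for Pold2 (adjusted p = 0.0926), -0.32 for Timeless (adjusted p = 0.144) and -0.79 for Dscc1 (adjusted p = 0.0918), while Dbf4 and Pole2 did (adjusted p = 0.0399 and 0.0411). Against WT, 27 of the 52 rose, with 4.34% of all genes higher, and the median difference was 0.71. Paired by title number, which the arrays of these groups bore out, 36 rose. The share of all genes in that fit is not given here. Against Null, pairing raised the share of all genes lower from 1.28% to 6.57%. The 25,26 mean lay between the WT and Null means for 51 of 52 genes, Rrm2 being the exception. Averaged over the members, 25,26 replicate 2 lay at -0.93 relative to the Null mean, while the other 4 arrays of the group lay between -0.37 and -0.18. In 10 genes every 25,26 array was above every WT array, as in 2.21% of all genes. Without replicate 2, a choice made after seeing the data, this held for 39 genes. Leaving out an array can only raise such a count, and the share of all genes was not taken. In 8 genes every 25,26 array was below every Null array, as in 1.81% of all genes, and the median difference from Null without replicate 2 was -0.27.

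By role, the genes that rose in 25,26 over WT were 7 of 12 for licensing, 5 of 8 for helicase activation, 4 of 8 for the clamp and its loaders, 3 of 9 for polymerases and primase, 2 of 5 for lagging-strand work, 3 of 3 for fork protection, 2 of 3 for chromatin and 1 of 4 for nucleotide supply. The median difference was between 0.53 and 0.80 in every role. Within complexes, 4 of 6 MCM genes, 2 of 5 clamp-loader genes, 1 of 4 GINS genes and none of the 3 listed origin recognition genes passed. Cdc6 had the largest difference at 1.42 ± 0.35, followed by Prim1 at 1.25 ± 0.27 (adjusted p = 0.00637) and Dscc1 at 1.19 ± 0.26 (adjusted p = 0.00673).

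In the QM cells, with both activation domains changed, none of the 52 genes passed against Null in either direction, with 0.0131% of all genes higher and none lower by limma, and none had an unadjusted p under 0.05, against 0.845% of all genes lower and 1.62% higher at that p. Differences ran from -0.20 for Rfc3 to 0.21 for Uhrf1, with a median of 0.05, and the 95% intervals lay within 1 log2 unit of 0 for 51 genes, Mcm5 being the other. Against WT, 45 of 52 rose in QM, with 8.16% of all genes higher, by a median of 1.15, and in 46 genes every QM array was above every WT array, as in 8.76% of all genes. The comparisons with Null share its 6 arrays, and those with WT share its 6 arrays.

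**Figure D2:**
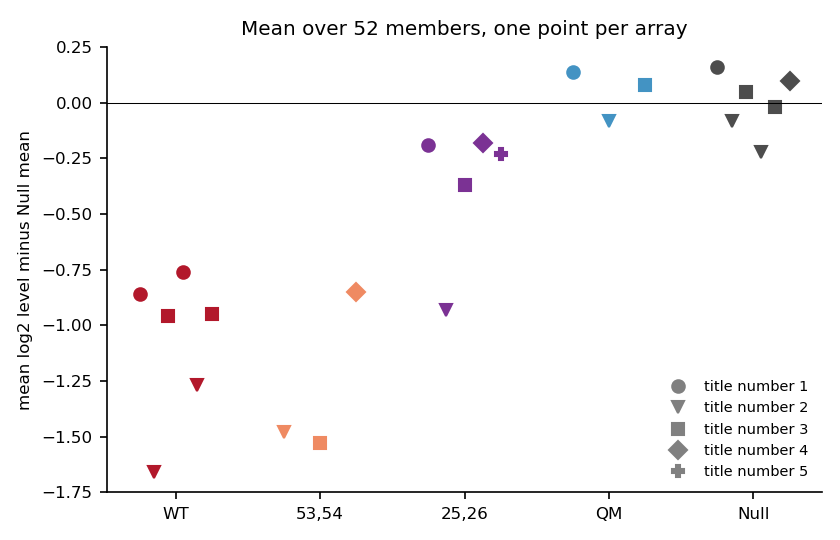
Mean over 52 replication and nucleotide genes on each of 23 arrays, as log2 level minus the Null mean (y axis), by group; marker shapes give the number in the sample title. WT arrays lie from -1.66 to -0.76, 53,54 arrays from -1.53 to -0.85, 25,26 arrays from -0.93 to -0.18, QM arrays from -0.08 to 0.14 and Null arrays from -0.22 to 0.16.

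The licensing genes were all lower in WT, 12 of 12, with a median difference of -0.79, and all 12 were lower in 53,54 cells, with a median of -1.11. Each of the 6 MCM helicase genes fell, by 0.70 to 1.41 in WT and by 0.66 to 1.80 in 53,54 cells. Mcm3, a helicase subunit, had levels of 9.19, 10.01 and 10.21 in WT (lowest, median and highest), against 11.05, 11.14 and 11.51 in Null cells. It had 9.38, 9.05 and 9.86 in 53,54 cells, 11.19, 10.29, 10.59, 10.83 and 10.72 in 25,26 cells, and 11.45, 11.36 and 11.25 in QM cells. All WT and 53,54 arrays were below all Null arrays, and every 25,26 array was above every WT array while replicate 1 reached the Null range. Mcm3 was 2.49-fold lower in WT (log2 difference -1.31 ± 0.17 SE, adjusted p = 6.26e-06) and 3.47-fold lower in 53,54 cells (adjusted p = 1.75e-06), and its 25,26 mean was 0.81 ± 0.18 above WT (adjusted p = 0.00618). Mcm6, another subunit, fell by 1.41 in WT (adjusted p = 1.24e-05) with levels of 9.49, 10.62 and 10.89, against 11.72, 11.83 and 12.03 in Null cells. Its 25,26 levels of 11.44, 10.83, 11.35, 11.55 and 11.42 were all below every Null array and, but for replicate 2, above every WT array.

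Cdc6, the loader of the helicase, had the lowest difference of the 52 and is described for that value. Its levels were 6.09, 7.73 and 7.89 in WT, against 8.97, 9.63 and 10.04 in Null cells. They were 6.93, 6.51 and 8.16 in 53,54 cells, 8.94, 7.54, 8.91, 9.25 and 9.19 in 25,26 cells and 9.66, 9.28 and 9.79 in QM cells. The WT and 53,54 arrays did not overlap Null, and 25,26 replicate 2 lay among the WT arrays. Cdc6 was 4.53-fold lower in WT (-2.18 ± 0.33) and 5.03-fold lower in 53,54 cells (-2.33 ± 0.41), and higher by 1.42 ± 0.35 in 25,26 than in WT cells (adjusted p = 0.0145). Orc1, the ATPase subunit of the origin recognition complex, had the smallest statistic of the role. Its levels were 7.24, 7.48 and 8.23 in WT, against 8.06, 8.25 and 8.65 in Null cells. WT replicates 4 and 5 reached into the Null range, and the gene still passed at -0.65 ± 0.19 (adjusted p = 0.0171). Geminin, the inhibitor of licensing encoded by Gmnn, was 3.08-fold lower in WT and 3.34-fold lower in 53,54 cells. The 3 genes of the origin recognition complex among the 52 fell by 0.42 to 0.67 in WT, with overlapping groups. Cdt1, the partner of Cdc6 in loading the helicase, fell by 0.62.

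**Figure D3:**
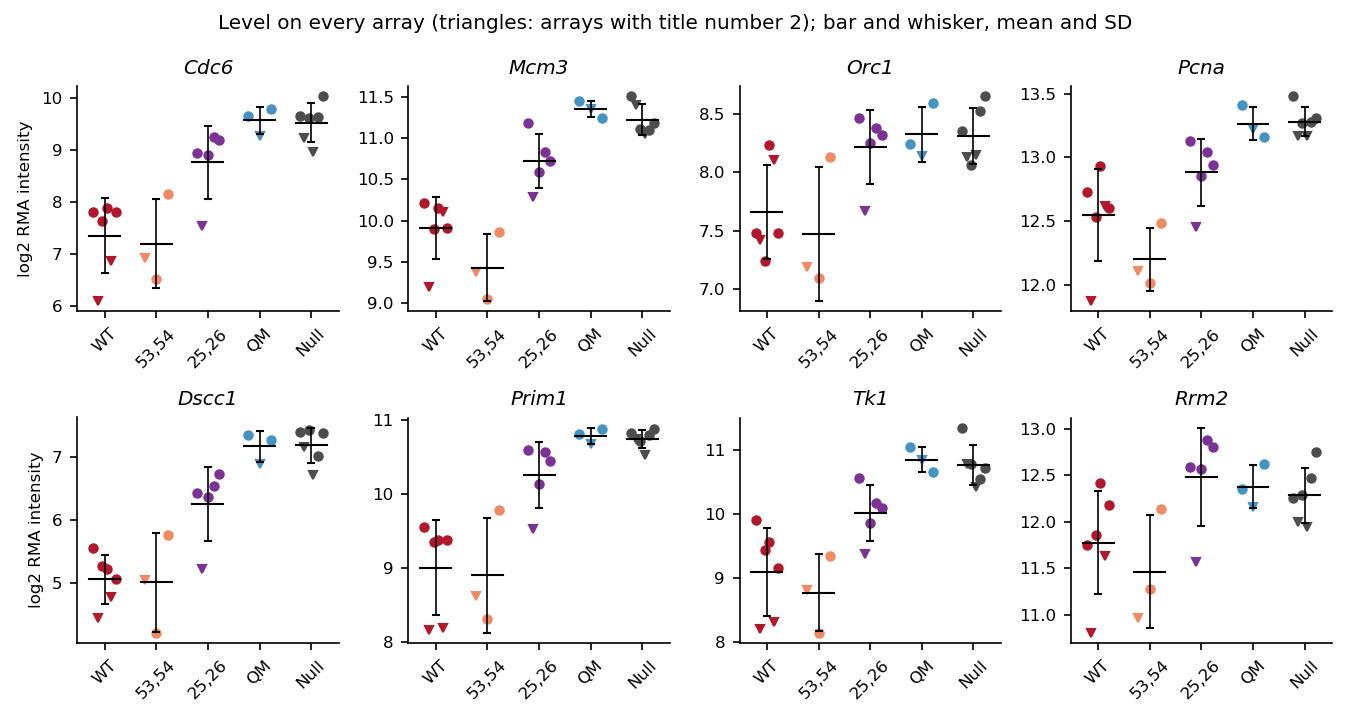
Log2 RMA intensity (y axis) of 8 genes on every array, in WT, 53,54, 25,26, QM and Null cells; points are arrays, triangles arrays with the number 2 in the title, and bars and whiskers the group mean and SD. Cdc6, Mcm3, Pcna, Dscc1, Prim1 and Tk1 are lower on every WT and 53,54 array than on every Null array, while the groups overlap for Orc1 and Rrm2.

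The genes of helicase activation were lower in WT for 8 of 8, with a median of -1.27, and for 8 of 8 in 53,54 cells, with a median of -1.44. Cdc7, the kinase that fires origins, had 7.03, 7.61 and 7.88 in WT, against 8.76, 9.03 and 9.23 in Null cells. It had 7.10, 7.17 and 7.80 in 53,54 cells and 8.39, 7.78, 8.43, 8.83 and 8.71 in 25,26 cells. The WT and 53,54 arrays sat together below Null, and 25,26 replicate 2 was within the WT range. The difference from Null was -1.44 ± 0.17 in WT (adjusted p = 2.21e-06) and -1.66 ± 0.21 in 53,54 cells, and -0.58 ± 0.18 in 25,26 cells, which did not pass (adjusted p = 0.0688). Dbf4, the activating partner of Cdc7, had 9.42, 10.09 and 10.15 in WT, against 10.71, 11.06 and 11.19 in Null cells, and fell by 1.10 in WT and by 1.27 in 53,54 cells. Its 25,26 arrays, at 10.80, 10.21, 10.62, 10.73 and 10.67, were all above its highest WT array at 10.15, and the gene rose in 25,26 over WT by 0.68 ± 0.14 (adjusted p = 0.00346). The GINS genes, for a subcomplex of the active helicase, fell in WT for 4 of 4 but by unequal amounts, from -1.63 for Gins1 to -0.44 for Gins4. Gins4 had 9.47, 9.68 and 10.24 in WT, against 10.04, 10.15 and 10.53 in Null cells, and its groups overlapped through WT replicate 4. Mcm10, which helps start the helicase, was 3.05-fold lower in WT and 3.67-fold lower in 53,54 cells, and Cdc45, the helicase cofactor, was 3.10-fold lower in WT and 3.84-fold lower in 53,54 cells.

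Among the sliding clamp and its loaders, 8 of 8 genes fell in WT, with a median of -1.04, and 8 of 8 in 53,54 cells, with a median of -1.24. Dscc1, a subunit of the alternative clamp loader that works with sister-chromatid cohesion, had 4.45, 5.15 and 5.56 in WT, against 6.71, 7.26 and 7.43 in Null cells. It had 5.05, 4.22 and 5.77 in 53,54 cells, 6.43, 5.23, 6.36, 6.53 and 6.72 in 25,26 cells and 7.35, 6.89 and 7.26 in QM cells. The lowest WT array and the lowest 53,54 array were under the detection floor, so the 4.34-fold drop in WT and the 4.49-fold drop in 53,54 cells rest on levels near background. Dscc1 passed in 25,26 against Null at -0.92 ± 0.26 (adjusted p = 0.0477), a call lost in 9 of the 11 fits that each left out 1 array. Rfc5, a subunit of the main clamp loader, fell by 1.36 in WT (adjusted p = 3.11e-06) and by 1.42 in 53,54 cells. Its 25,26 arrays, at 10.02, 9.52, 9.81, 10.00 and 10.00, lay above every WT array, up to 9.32, and below every Null array, from 10.08. Chtf18, the large subunit of the alternative loader, was 2.38-fold lower in WT and 3.66-fold lower in 53,54 cells. The 5 clamp-loader subunits Rfc1 to Rfc5 all fell, from -1.44 for Rfc4 to -0.50 for Rfc2. Rfc1, the large subunit, had 8.64, 9.27 and 9.55 in WT, against 9.47, 9.75 and 9.88 in Null cells, and passed at -0.51 ± 0.17 (adjusted p = 0.0359), a call lost in 6 of 12 fits without 1 array.

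Pcna, the sliding clamp itself, is also a known p53 target and was looked at for that reason after its values were seen. It had 11.87, 12.61 and 12.93 in WT, against 13.17, 13.27 and 13.48 in Null cells. It had 12.11, 12.01 and 12.48 in 53,54 cells, 13.13, 12.45, 12.85, 13.04 and 12.94 in 25,26 cells and 13.41, 13.22 and 13.16 in QM cells. Every array of WT, 53,54 and 25,26 cells was below every Null array, and the 25,26 arrays overlapped WT. The difference was -0.73 ± 0.14 in WT (adjusted p = 0.000519) and -1.08 ± 0.17 in 53,54 cells (adjusted p = 8.12e-05), and -0.40 ± 0.15 in 25,26 cells, which did not pass (adjusted p = 0.155).

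All 9 polymerase and primase genes fell in WT, with a median of -1.09, and all 9 in 53,54 cells, with a median of -1.17. The 4 genes of polymerase alpha and primase, which lay down the primers, fell by 0.50 to 1.74 in WT. The 3 listed genes of polymerase delta, mainly of the lagging strand, fell by 0.68 to 1.30. Those listed for polymerase epsilon, mainly of the leading strand, fell by 1.06 and 1.34. Pold2, the regulatory subunit of polymerase delta, had 9.16, 9.40 and 9.76 in WT, against 10.47, 10.78 and 11.07 in Null cells. It had 9.29, 9.10 and 9.51 in 53,54 cells, 10.48, 10.04, 10.07, 10.05 and 10.01 in 25,26 cells and 10.94, 10.81 and 10.65 in QM cells. WT and 53,54 arrays were low, QM and Null arrays high and 25,26 arrays between, with 25,26 replicate 1 reaching the lowest Null array. Pold2 fell by 1.30 in WT (adjusted p = 1.3e-07), by 1.45 in 53,54 cells (adjusted p = 5.07e-07) and by 0.61 in 25,26 cells (adjusted p = 0.00654), and it was 0.69 ± 0.13 higher in 25,26 than in WT cells. Prim1, the catalytic primase subunit, had 8.17, 9.37 and 9.56 in WT, against 10.52, 10.76 and 10.88 in Null cells. It was 3.33-fold lower in WT and 3.58-fold lower in 53,54 cells, and WT replicates 2 and 5 were its lowest WT arrays. Prim2, the other primase subunit, passed at only -0.50 ± 0.15 in WT (adjusted p = 0.0162), with 8.01, 8.59 and 8.81 in WT and 8.63, 8.99 and 9.46 in Null cells.

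Of the 5 genes for binding of unpaired DNA and for finishing the lagging strand, 4 fell in WT, with a median of -1.10, and 4 fell in 53,54 cells, with a median of -1.03. Lig1, the ligase that joins Okazaki fragments, had 8.30, 8.97 and 9.52 in WT, against 10.22, 10.36 and 10.68 in Null cells. It had 8.81, 8.28 and 9.05 in 53,54 cells and 10.06, 9.36, 9.79, 9.91 and 9.89 in 25,26 cells. Every 25,26 array was below every Null array, and replicate 2 was within the WT range. Lig1 fell by 1.43 in WT (adjusted p = 2.98e-06) and by 1.70 in 53,54 cells, and its difference of -0.61 ± 0.18 in 25,26 cells did not pass (adjusted p = 0.0603). Replication protein A covers exposed strands as a complex of 3 subunits. Rpa3 had 8.90, 9.64 and 9.94 in WT, against 10.51, 10.63 and 10.86 in Null cells, with no overlap. Rpa3 fell by 1.15 and Rpa2 by 1.10 in WT, while the large subunit Rpa1 had a difference of -0.46 ± 0.22 that did not pass (adjusted p = 0.144). Rpa1 had 11.14, 11.91 and 12.53 in WT, against 12.05, 12.41 and 12.76 in Null cells, with overlap of the groups. Fen1, the flap nuclease, fell by 0.62 in WT. Another Rpa1 probe set had the same difference of -0.46 and passed in the fit over all probe sets (adjusted p = 0.0091).

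The 3 fork-protection genes fell in WT, with a median of -1.23, in 53,54 cells, with a median of -1.43, and rose in 25,26 over WT, 3 of 3. Timeless, which couples the helicase to the polymerases, had 7.69, 7.91 and 8.11 in WT, against 8.81, 9.06 and 9.45 in Null cells. It had 7.80, 7.46 and 7.79 in 53,54 cells, 8.64, 8.65, 8.80, 8.57 and 8.52 in 25,26 cells and 9.13, 9.34 and 9.07 in QM cells. No 25,26 array overlapped either WT or Null. Timeless fell by 1.23 in WT (adjusted p = 4.26e-08), by 1.43 in 53,54 cells and by 0.47 in 25,26 cells (adjusted p = 0.0162), and was higher by 0.75 ± 0.11 in 25,26 than in WT cells (adjusted p = 0.00026). Its partner Tipin had 10.34, 10.89 and 11.36 in WT, against 11.78, 11.90 and 12.12 in Null cells, and was 2.03-fold lower in WT and 2.06-fold lower in 53,54 cells. Clspn, the checkpoint adaptor claspin, had 6.50, 7.70 and 8.09 in WT, against 8.75, 9.14 and 9.43 in Null cells. The groups did not overlap for either gene, and Clspn was 3.20-fold lower in WT and 3.97-fold lower in 53,54 cells.

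The 3 measured genes of chromatin restoration fell in WT, with a median of -1.24, and in 53,54 cells, with a median of -1.51. Uhrf1, which recruits the maintenance methyltransferase to new DNA, had 9.39, 9.53 and 10.17 in WT, against 10.62, 11.08 and 11.28 in Null cells. It had 9.78, 8.98 and 9.51 in 53,54 cells, 10.75, 10.49, 10.45, 10.40 and 10.32 in 25,26 cells and 11.26, 11.50 and 10.94 in QM cells. Every 25,26 array was above every WT array, and replicate 1 reached the Null range. Uhrf1 fell by 1.35 in WT (adjusted p = 1.65e-06) and by 1.60 in 53,54 cells, and rose by 0.80 ± 0.16 in 25,26 over WT. Chaf1b, a chromatin-assembly subunit, had 7.32, 7.98 and 8.54 in WT, against 8.78, 9.20 and 9.46 in Null cells, and was 2.37-fold lower in WT. Dnmt1, the maintenance methyltransferase, had 9.82, 10.05 and 10.46 in WT, against 10.33, 10.92 and 11.30 in Null cells. It was 1.73-fold lower in WT with overlapping groups.

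Of the 4 nucleotide-supply genes, 3 fell in WT and in 53,54 cells, with medians of -0.96 and -1.22. Tk1, the thymidine kinase of dividing cells, had 8.19, 9.29 and 9.90 in WT, against 10.42, 10.74 and 11.34 in Null cells. It had 8.81, 8.14 and 9.34 in 53,54 cells and 10.56, 9.37, 9.86, 10.17 and 10.08 in 25,26 cells. The WT and 53,54 arrays did not overlap Null, and the 25,26 arrays overlapped both WT and Null. Tk1 was 3.18-fold lower in WT (adjusted p = 8.82e-05) and 3.98-fold lower in 53,54 cells, and 0.92 ± 0.28 higher in 25,26 than in WT cells (adjusted p = 0.0482). The subunits of ribonucleotide reductase were not tested against each other. Rrm1, the large subunit, fell by 1.22 in WT (adjusted p = 0.0004), with 10.00, 10.90 and 11.26 in WT and 11.80, 11.89 and 12.26 in Null cells. Rrm2, the S-phase small subunit, had 10.81, 11.81 and 12.42 in WT, against 11.95, 12.27 and 12.75 in Null cells, and its difference of -0.51 ± 0.25 did not pass (adjusted p = 0.171), nor did either of its other probe sets. The 25,26 arrays of Rrm2, at 12.59, 11.57, 12.57, 12.88 and 12.81, had a mean 0.20 ± 0.27 above Null, with replicate 2 below the Null range and replicates 4 and 5 above it. The chosen Tyms probe set, for thymidylate synthase, averaged 5.23, near the floor, and its difference of -0.71 ± 0.16 in WT (adjusted p = 0.00195) rests on dim signal.

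Set against each other, the 53,54 cells were below the 25,26 cells for 30 of the 52 genes, with 2.5% of all genes lower. The median difference was -0.85, and in 19 genes every 53,54 array was below every 25,26 array, as in 5.61% of all genes. Among the members Timeless had the smallest adjusted p, with a difference of -0.95 ± 0.14 (adjusted p = 0.000174), and Mcm3 differed by -1.29 ± 0.21 (adjusted p = 0.000869). Paired by title number, which same-number arrays of these groups again bore out, 46 genes passed. The count was 7 without 53,54 replicate 3, 13 without 53,54 replicate 2 and 47 without 25,26 replicate 2. The shares of all genes in these fits are not given here, so the counts cannot be set against them. Strain background was unequal here, with 1 of 3 arrays on the 129 strain in 53,54 cells and 4 of 5 in 25,26 cells. On the 129 strain alone, 51 of 52 genes were lower in the 53,54 array than in the 25,26 mean, with a median of -0.44, and on the mixed background all 52 were, with a median of -1.08.

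Within each background the WT difference from Null was negative for all 52 genes, with a median of -1.20 on the 129 strain and -1.03 on the mixed background. The 53,54 difference was negative for all 52 on both, with a median of -0.72 for the 1 array on the 129 strain, replicate 4, and of -1.52 for the arrays on the mixed background. That array was the highest of its group, so strain and array cannot be told apart there. For 25,26 against WT, every gene was higher on both backgrounds, with medians of 0.84 and 0.53.

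The WT comparison was also split by how p53 was supplied. In LSL-WT cells with Cre virus against LSL-WT cells with Empty virus (n = 3 each), 44 of 52 genes fell, with 6.89% of all genes lower, and the median difference was -1.21. Paired by title number, all 52 fell, with 15.4% of all genes lower. In WT cells with Cre virus against p53 null cells with Cre virus (n = 3 each), 31 of 52 fell, with 7.19% of all genes lower, and the median was -0.95. In the first split every gene but Pole2 was lower on every array, 51 of 52, against 14.4% of all genes, and in the other this held for 43, against 12.6%. Prim1 had 9.56, 8.17 and 9.35 in LSL-WT cells with Cre virus, against 10.82, 10.74 and 10.72 with Empty virus, and 9.38, 8.19 and 9.38 in WT cells with Cre virus, against 10.52, 10.79 and 10.88 in null cells with Cre virus. The Prim1 arrays of both p53-positive kinds lay in the same range. The difference between the splits passed for none of the 52 genes, with 0.00655% of all genes lower by limma, and 2 members were lower at an unadjusted p under 0.05, with 5.15% of all genes. The count for WT with Cre virus against null was 19 without WT replicate 5 and 13 with the level of Xist, a transcript of female cells, as a covariate. The shares of all genes in those fits are not given here. Xist was 5.29 higher in that split, on every WT array above every null array, so p53 and Xist level went together there. Its difference in the LSL-WT split was -0.06. Against the whole Null group Xist was higher by 2.61 in WT, 3.79 in 25,26, 2.93 in QM and 0.98 in 53,54 cells. None of these Xist differences passed.

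The genes varied together from array to array. After removing subgroup means, the correlation of each gene with the mean of the other 51 over 23 arrays had a median of 0.88, and it was above 0.8 for 37 genes, against a median of 0.16 for all genes with the members' mean. The arrays share normalization and RNA samples, so these are descriptions. Cdc6 and Pola1, the catalytic subunit of polymerase alpha, were highest at 0.97. The genes that did not follow were Dnmt1 at -0.32, Timeless at -0.05, Tyms at 0.05 and Uhrf1 at 0.17, followed by Orc2 at 0.30 and Gins4 at 0.31. The value depended on the probe set. Other probe sets of Dnmt1 had 0.83 and 0.87, while those of Rfc1 had -0.13 and -0.39, against 0.82 for the one used. Of the 46 other probe sets, with a median of 0.72, 11 from 10 genes were lower than the one used by more than 0.4, and the 2 of Dnmt1 were higher by more than that. Timeless and Uhrf1 were among the genes with the clearest group steps and yet did not share the array-to-array movement.

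**Figure D4:**
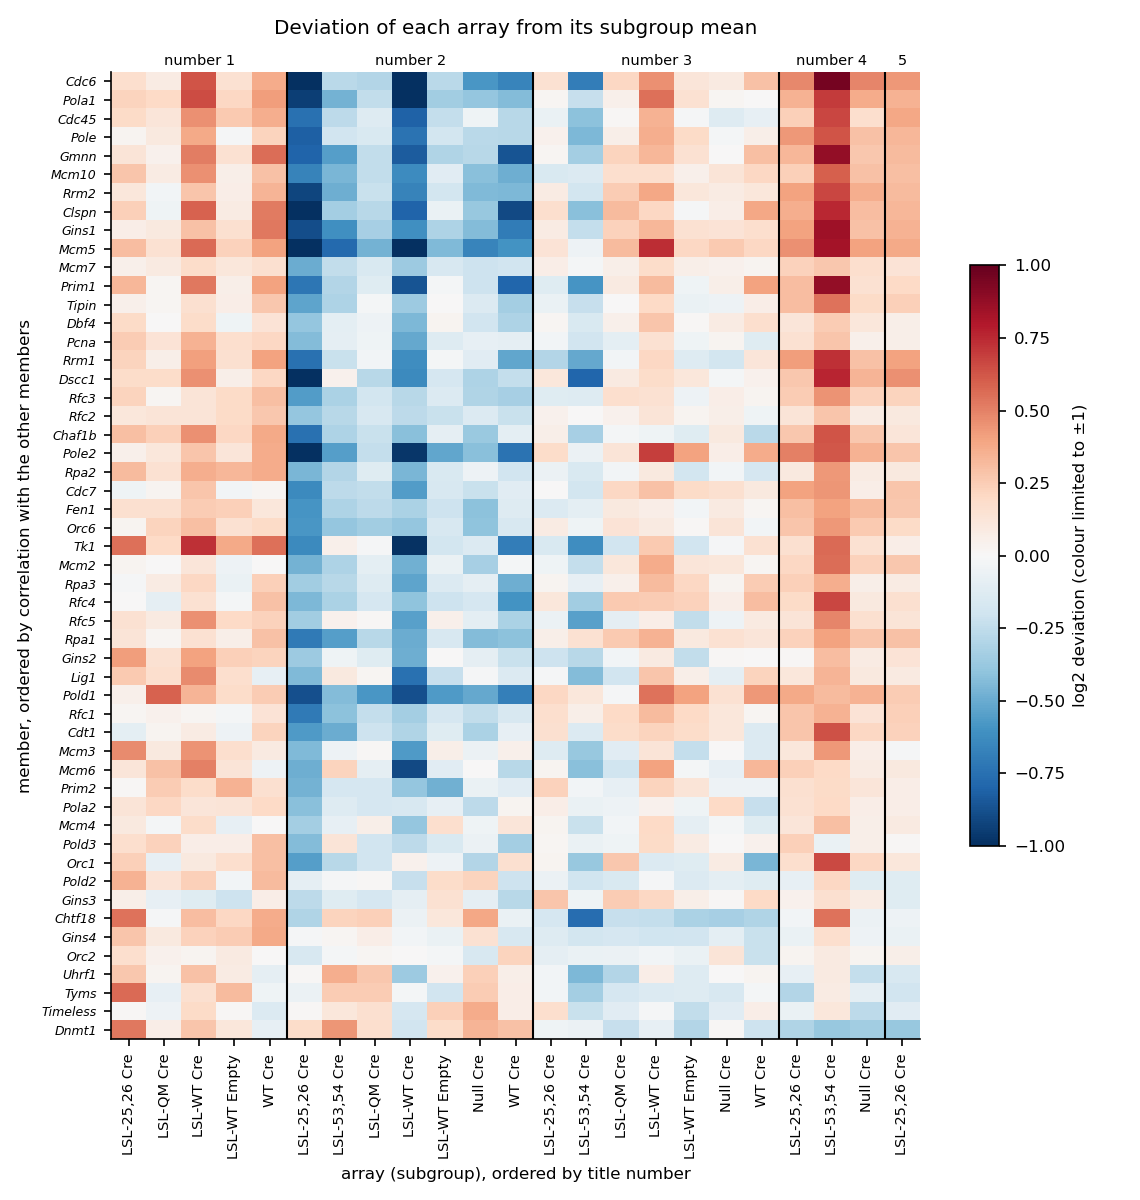
Log2 deviation of each of 23 arrays (across, ordered by the number in the sample title) from its subgroup mean, for 52 genes (down the page, ordered by correlation with the other genes); blue is below and red above, limited to ±1. The 7 arrays numbered 2 are blue for 40 to 50 of the 52 genes, while Dnmt1, Timeless, Tyms and Uhrf1 at the bottom do not follow.

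The movement ran with the number in the sample title. On each of the 7 arrays numbered 2, 1 in every subgroup, 40 to 50 of the 52 genes were below their subgroup mean, and the mean deviation of the genes was between -0.55 and -0.12. For 30 genes (57.7%) all 7 were below, as for 17.9% of all genes, and Mcm5 and Pold1 had mean deviations of -0.79 and -0.65. These 7 arrays also differed in the 3′ to 5′ log2 ratio of the control probe sets for Actb, a ratio that rises with RNA degradation. It was lower on them, at 0.06 to 0.13 against 0.20 to 0.41 on the other 16 arrays. The Gapdh ratio went the other way with overlap, at -0.01 to 0.04 against -0.13 to 0.01. The part of RNA quality in the genes' movement was not tested. The Actb ratio did not separate the p53 groups, at 0.10 to 0.32 in WT and 0.06 to 0.31 in Null cells. Among arrays numbered 2 alone, WT was below Null for all 52 genes with a median of -1.37, among those numbered 3 with a median of -0.92 and among those numbered 1 with a median of -1.01. Without the 7 arrays, 48 genes fell in WT and 50 in 53,54 cells against Null, with 8.65% and 8.8% of all genes lower. Also without them, 2 fell in 25,26 cells against Null, with 0.825% of all genes lower, and 33 rose in 25,26 over WT. The share of all genes higher in the last of these is not given here.

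Other genes of replication and of nucleotide metabolism were read from lists beside the 52. Of 33 further replication genes, 26 fell and none rose in WT, 23 fell in 53,54 cells and 6 fell in 25,26 cells, against Null, where 11.8%, 10.3% and 1.28% of all genes were lower. Exo1, an exonuclease of repair and replication, had the lowest difference in WT at -2.05 ± 0.31, followed by the topoisomerase gene Top2a at -1.89 ± 0.28 and Atad5, which unloads the clamp, at -1.41 ± 0.15. The smallest differences that passed in that list were -0.27 for Orc3, of the origin recognition complex, -0.27 for Chtf8, a partner of Dscc1 and Chtf18, and -0.25 for Rbbp4, a histone-binding protein. Of 28 tested nucleotide genes, 12 fell and 2 rose in WT, and 15 fell and 2 rose in 53,54 cells. Among all genes 11.8% were lower and 10.9% higher in WT, and 10.3% lower and 9.22% higher in 53,54 cells. Shmt1, which feeds thymidylate synthesis with folate-bound carbon, fell by 1.36 in WT, the dUTPase gene Dut by 0.88 and Samhd1, which degrades deoxynucleotides, by 0.87. Samhd1 fell in 25,26 cells as well, by 0.72 (adjusted p = 0.000188). Prps2, which makes the ribose phosphate precursor of nucleotides, went the other way. It lay between 10.57 and 11.27 in WT, between 10.80 and 11.05 in 53,54 cells and between 10.15 and 10.51 in 25,26 cells, above the Null range of 9.09 to 9.67 on every array. The difference was 1.47 ± 0.12 in WT (adjusted p = 9.54e-09) and 1.03 ± 0.12 in 25,26 cells (adjusted p = 1.32e-05). Impdh1, of guanine nucleotide synthesis, rose by 0.40 in WT, and Adsl, of purine synthesis, had the smallest fall that passed, at -0.37.

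The WT difference was also read against the promoter letters. The median WT difference was -1.09 over the 17 genes with a match, from -2.18 to -0.55, and -1.15 over the 25 measured genes with a window and no match, from -1.74 to -0.42. Cdc6 and Orc1, whose stretches are printed above with 1 E2F match each, were the licensing genes with the largest fall and with the smallest test statistic.

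For each gene the brightest probe set was used. Of 46 other tested probe sets of these genes, 35 were lower in WT than in Null, none was higher and 11 did not pass. Markers of other cells were measured beside these results. The summed level of 10 epithelial markers was 4614 to 7698 intensity units in WT, 5488 to 6963 in 53,54, 3543 to 7629 in 25,26 and 3646 to 4961 in QM cells, against 2032 to 4499 in Null cells, and 4 of the 10 rose in WT. The 6 muscle markers summed to 1280 to 5056 in WT and 1080 to 1507 in 53,54 cells, against 632 to 1105 in Null cells, with 1 of 5 tested markers higher in each. The 7 endothelial markers summed to 512 to 680 in WT and 564 to 729 in 53,54 cells, against 372 to 460 in Null cells, with 1 of 5 tested markers higher in each. The 8 macrophage markers summed to 508 to 977 in WT and 916 to 1043 in 53,54 cells, against 514 to 643 in Null cells, with 1 of 6 tested markers higher in WT and 2 of 6 in 53,54 cells. The 53,54 sums were above every Null sum for the epithelial, macrophage and endothelial lists, and the WT sums for the epithelial, muscle and endothelial lists. The 6 neural markers summed to 2380 to 4002 in WT, against 1930 to 3126 in Null cells. Of the macrophage and of the endothelial markers 2, and of the muscle markers 1, were under the floor on every array. The 8 fibroblast markers summed to 89137 to 117476 in WT and 89107 to 105728 in 53,54 cells, against 94360 to 137095 in Null cells, and 2 of the 8, Col3a1 and Pdgfrb, fell in WT. The part of other cells in the replication genes' differences was not tested.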

How the data were processed

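Gene expression was measured on 23 one-colour Affymetrix arrays, 1 per sample. The deposited values are probe-set intensities that the authors made with RMA, per the submitters' processing notes, and they lie on a linear scale with array medians of 59.9 to 64.22. The version and options of RMA are not given in the sources used here. Of 45101 probe sets, 64 controls were left out, and 34945 of the others had 1 gene symbol, 932 several and 9160 none in the platform annotation; only those with 1 symbol were used.

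Intensities were taken to log2 here, and each gene was read from its probe set of highest average level. Genes above the 30th percentile of all values, a log2 level of 4.79, on at least 3 arrays were tested. limma 3.58.1 in R 4.3.3 (lmFit and eBayes) was fitted on all 23 arrays, with 5 group means, or 7 subgroup means where the WT comparison was split, and p-values were adjusted by Benjamini-Hochberg over all 15266 genes, with a threshold of 0.05. All p-values are two-sided. The fit was tested on simulated data. The number of arrays limits the precision.

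Genes described in full were, in each role, the 2 with the largest and the 1 with the smallest moderated statistic between WT and Null; Cdc6, Gmnn, Cdc45, Pcna, Tyms and the other genes outside that rule were chosen after their values were seen. The members, lists and tests were chosen with earlier results of these data known.

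Where arrays are called paired by title number, the number was a block term in the fit over all 23 arrays. Number 5 was borne by 25,26 replicate 5 alone, so that array added nothing to the 25,26 differences in such a fit. Same-number arrays of different groups were checked for shared deviations from their group means. Every such pair correlated above 0.1 for 53,54 against Null, 25,26 against WT, 53,54 against 25,26 and LSL-WT with Cre against Empty virus, so the fit with the number as a block is given beside the fit without it for these; the labels do not say what the number means. The alternatives were quantile normalization, median centring, other filters, the mean of probe sets, array weights, the compared arrays alone, title number, strain background and Xist level as terms, Null arrays with Cre virus alone as Null, and leaving out each array or the arrays numbered 2. Promoter windows are from RefSeq. The transcripts of p53 and H-Ras, and Chaf1a, are not analysed here.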

Additional observations from a re-analysis of the deposited data

Results flagged for a closer look

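Of 156 sets of arrays, 1 per gene and group of 4 to 10 arrays, 29 had 1 array far from the others by Dixon's test, where chance flags about 1 in 20. In 20 of the 29 it was 25,26 replicate 2, as the lowest array of its group. Its log2 levels were 7.67 for Orc1, 9.76 for Orc6, 7.54 for Cdc6, 9.18 for Gmnn, 11.41 for Mcm4, 9.75 for Mcm5, 10.83 for Mcm6 and 11.89 for Mcm7 among the licensing genes. They were 7.44 for Gins1, 8.82 for Rfc1, 10.28 for Rfc2, 9.02 for Rfc4 and 5.23 for Dscc1. They were 7.95 for Pola1, 8.20 for Pold1, 8.97 for Pola2, 11.65 for Rpa1, 7.47 for Clspn, 8.07 for Chaf1b and 11.57 for Rrm2. In 6 sets WT replicate 2 was lowest, at 9.84 for Mcm2, 9.19 for Mcm3, 10.69 for Mcm4, 11.87 for Pcna, 6.38 for Pola1 and 8.01 for Prim2. Null replicate 2 was highest for Mcm4 at 12.21, 25,26 replicate 1 for Pold2 at 10.48 and Null replicate 1 for Rpa2 at 9.98. The genes share arrays, so these are not independent events.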

How the results depend on the processing

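The counts of genes past the threshold in WT and in 53,54 cells against Null, in QM cells against WT and in LSL-WT cells with Cre against Empty virus stayed within 1.5 times their value under the alternatives run, and the count in QM cells against Null stayed at 0. With Null arrays of Cre virus alone as Null, 39 genes fell in WT and 46 in 53,54 cells, with 8.35% and 7.44% of all genes lower. For 25,26 against Null, 3 genes became 6 with the compared arrays alone, 9 with array weights, 1 with the Xist level as a covariate and 0 with Null arrays of Cre virus alone. With the title number as a block, which not all same-number arrays of these groups bore out, 32 passed, and 9 when 25,26 replicate 2 was also left out, a choice made after seeing the data. Array weights, whose estimation stopped before convergence, gave 12 for 53,54 against WT, 46 for 25,26 against WT and 52 for 53,54 against 25,26. The last comparison gave 46 with the block and 14 with its own arrays alone. WT against null cells with Cre virus gave 13 with the Xist covariate, and the difference between the splits of WT gave 1 gene with the block. The block gave 52 for WT against Null, where Rpa1 and Rrm2 then passed, 36 for 25,26 against WT, 52 for QM against WT and 52 for LSL-WT with Cre against Empty virus, and 0 for QM against Null and for 53,54 against WT. The block also raised the share of all genes called, for WT against Null from 11.8% to 17.6% lower. The cause of these changes was not tested.

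Leaving out 1 array at a time gave 49 to 50 genes for WT against Null, 41 to 52 for 53,54 against Null, 2 to 3 for 25,26 against Null, 0 to 0 for QM against Null and for 53,54 against WT, 20 to 40 for 25,26 against WT and 36 to 48 for QM against WT. It gave 7 to 47 for 53,54 against 25,26, 30 to 45 for LSL-WT with Cre against Empty virus, 19 to 32 for WT against null with Cre virus and 0 to 0 for the difference between the splits. The share of all genes lower in 53,54 cells against Null ran from 6.64% without 53,54 replicate 3 to 10.4% without Null replicate 4. Of the values of single genes under an alternative, 11091 stayed on their side of the threshold, 391 lost it and 352 passed it. None that passed in either fit changed sign, and 303 that passed in neither did. Array levels near the floor of 4.79 limit Dscc1 and Tyms.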
